A study of Mus musculus with 7 samples.

Results

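Collagen genes were examined in the apex of hearts that lacked p38α MAP kinase in cardiomyocytes (KO) and in control hearts, all after 48 hours of angiotensin II. Every gene whose symbol on the array is Col, a number, a and a number was taken, which gave 44 collagen genes of 21154 named genes, read by 64 probes. The KO hearts came from mice homozygous for p38α flox/flox and heterozygous for α-MHC mercremer, a tamoxifen-inducible Cre recombinase that the α-MHC promoter expresses in cardiomyocytes (n = 3). The control hearts came from p38α flox/flox mice with no Cre transgene recorded (n = 4). All were male C57BL/6 mice that received 500 µg of hydroxytamoxifen a day for 10 days from 6 weeks of age, then 1.5 mg/kg/d of angiotensin II by osmotic minipump, and were harvested at 3 months. The design text speaks of 4 KO hearts, of which the other one was not analysed here. Control hearts had the inducer but no Cre, so the deletion and the presence of Cre cannot be told apart, and no heart without angiotensin II was part of the comparison.

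Collagens are secreted proteins of 3 chains wound into a triple helix. The fibrillar collagens, chiefly types I and III in the heart, form the tensile fibres between muscle bundles, with type V inside them as a regulator of fibril diameter. Type IV collagen forms the sheet of the basement membrane around each cardiomyocyte and capillary, type VI forms beaded filaments at the cell surface, and the fibril-associated collagens sit on the surface of fibrils. Fibroblasts make most fibrillar collagen in the heart, and angiotensin II, acting in part through TGFβ, is a classical stimulus of collagen deposition there.

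The 6 genes of type IV lie in head-to-head pairs, and the promoters of both pairs measured here are shown because the differences of 1 pair had the same sign and those of the other opposite signs. The promoters of Col5a3, a fibrillar gene that rose, and of Col1a2, a chain of type I collagen whose controls split, stand beside them. Each window holds 300 bases, the last 50 of them after the annotated start, in RefSeq's GRCm38.p6 build, where 35 of the 44 collagen genes had an entry, 20 of the 25 measured ones among them. Capitals mark the motif CCAAT, read as ATTGG when it lies on the opposite strand, and the motif GGGCGG, read as CCGCCC when it does, and no marked motifs overlapped. The windows are chr8:11312777-11313076 on the minus strand for Col4a1, chr8:11312555-11312854 on the plus strand for Col4a2, chrX:141475169-141475468 on the plus strand for Col4a5, chrX:141474027-141474326 on the minus strand for Col4a6, chr9:20815018-20815317 on the minus strand for Col5a3 and chr6:4505368-4505667 on the plus strand for Col1a2.
Col4a1: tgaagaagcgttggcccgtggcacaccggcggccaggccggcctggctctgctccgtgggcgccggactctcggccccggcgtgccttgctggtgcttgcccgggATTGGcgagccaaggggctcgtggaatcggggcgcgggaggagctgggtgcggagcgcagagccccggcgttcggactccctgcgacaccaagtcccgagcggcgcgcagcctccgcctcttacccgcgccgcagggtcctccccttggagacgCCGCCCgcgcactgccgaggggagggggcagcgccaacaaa
Col4a2: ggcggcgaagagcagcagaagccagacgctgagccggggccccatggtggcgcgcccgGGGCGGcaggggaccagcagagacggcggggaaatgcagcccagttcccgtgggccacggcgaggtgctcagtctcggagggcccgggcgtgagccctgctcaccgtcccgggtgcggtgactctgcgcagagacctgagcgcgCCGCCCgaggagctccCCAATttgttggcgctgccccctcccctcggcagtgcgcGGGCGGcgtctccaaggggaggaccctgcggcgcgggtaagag
Col4a5: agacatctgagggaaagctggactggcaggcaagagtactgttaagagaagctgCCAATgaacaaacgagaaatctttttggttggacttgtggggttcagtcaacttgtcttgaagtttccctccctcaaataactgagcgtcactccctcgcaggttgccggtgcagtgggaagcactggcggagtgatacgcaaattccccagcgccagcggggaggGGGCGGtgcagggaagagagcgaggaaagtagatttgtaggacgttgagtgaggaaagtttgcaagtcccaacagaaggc
Col4a6: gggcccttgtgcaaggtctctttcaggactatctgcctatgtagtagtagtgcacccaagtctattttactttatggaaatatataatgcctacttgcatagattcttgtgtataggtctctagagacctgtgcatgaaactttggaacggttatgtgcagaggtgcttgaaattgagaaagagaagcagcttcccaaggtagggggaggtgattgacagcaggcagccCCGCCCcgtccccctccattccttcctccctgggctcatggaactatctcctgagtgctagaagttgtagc
Col5a3: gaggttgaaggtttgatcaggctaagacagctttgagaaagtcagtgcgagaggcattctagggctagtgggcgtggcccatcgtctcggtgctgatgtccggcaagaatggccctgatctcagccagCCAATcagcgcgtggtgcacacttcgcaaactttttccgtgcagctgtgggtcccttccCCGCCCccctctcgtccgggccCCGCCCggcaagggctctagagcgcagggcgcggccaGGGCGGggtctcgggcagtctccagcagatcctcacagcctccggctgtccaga
Col1a2: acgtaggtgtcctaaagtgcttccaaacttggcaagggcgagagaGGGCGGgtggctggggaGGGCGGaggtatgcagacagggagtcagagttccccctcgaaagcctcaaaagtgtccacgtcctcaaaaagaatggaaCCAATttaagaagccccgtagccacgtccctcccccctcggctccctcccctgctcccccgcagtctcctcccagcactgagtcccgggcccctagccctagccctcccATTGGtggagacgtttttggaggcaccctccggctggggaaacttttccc
The annotated starts of Col4a1 and Col4a2 lie 21 bases apart, so their windows share 78 bases, while those of Col4a6 and Col4a5 lie 1343 bases apart. CCAAT occurred in 5 of these 6 chosen windows and in 37.4% of 32851 promoter windows, and GGGCGG in all 6 and in 35.7%. Of the 35 collagen genes with an entry 13 had CCAAT and 22 GGGCGG, and of the 20 measured ones 8 and 14. These counts are of genes with the motif in any of their windows, where the percentages are of single windows. The GGGCGG of Col4a1 and 1 of those of Col4a2 are the same bases of the shared stretch. A match is a description of the letters, not of a bound site.

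The arrays carried probes for all 44 collagens, and 25 collagens were measured, meaning that in KO or control hearts 3 or more arrays had a probe well above background. On each array 46.03% to 49.68% of probes were well above background, and the fit covered 22344 genes and unnamed probes. Levels are log2 processed signals relative to the 75th percentile of the array, and differences are KO minus control on that scale from limma, with Benjamini-Hochberg adjustment over all 22344. A gene is said to rise or fall where the adjusted p was under 0.05. The labels name separate hearts, taken as separate animals, and 7 arrays limit the precision. All 11 cardiomyocyte markers listed were well above background on every array. Mapk14, the targeted gene, read 3.74, 3.76 and 3.71 in KO hearts, against 3.52, 3.40, 3.47 and 3.67 in control hearts, a difference of 0.22 (adjusted p = 0.202). The position of its probes relative to the deleted exons is not known here, so it does not check the deletion. A probe for Esr1, whose hormone-binding part MerCreMer contains, was well above background on all 3 KO arrays, at -0.82, 0.07 and 4.50, and on 0 of 4 control arrays. The other 2 Esr1 probes were well above background on no array. The arrays lay in 2 rows of a single slide, as read from the position code that each deposited array file carries, which no label explains. KO 1, control 1 and control 2 were in row 1, and KO 2, KO 3, control 3 and control 4 in row 2.

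Of the 25 measured collagens 3 rose in KO hearts, 4 fell and 18 did not pass. The genes that rose were Col4a1 of the basement membrane and the type V chains Col5a2 and Col5a3, and those that fell were Col4a4, Col4a6, Col9a2 and Col20a1. Among all features 25.2% passed, 10.2% higher and 15.0% lower in KO, so the share of collagens that passed was close to that of the background. The median difference was 0.43 over the measured collagens and -0.06 over all features. KO and control hearts did not overlap in 7 of the 25 collagens (3 above and 4 below), where 39.0% of all features did not overlap, 17.6% above and 21.4% below. Of the 7 that passed Col4a1 overlapped between the groups, while Col27a1 did not overlap and did not pass. Leaving out KO 1 left 0 collagens past the threshold and 69 of all features, in place of 5640. Leaving out KO 2 left Col4a4 alone of the collagens and 1138 of all features.

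**Figure D1:**
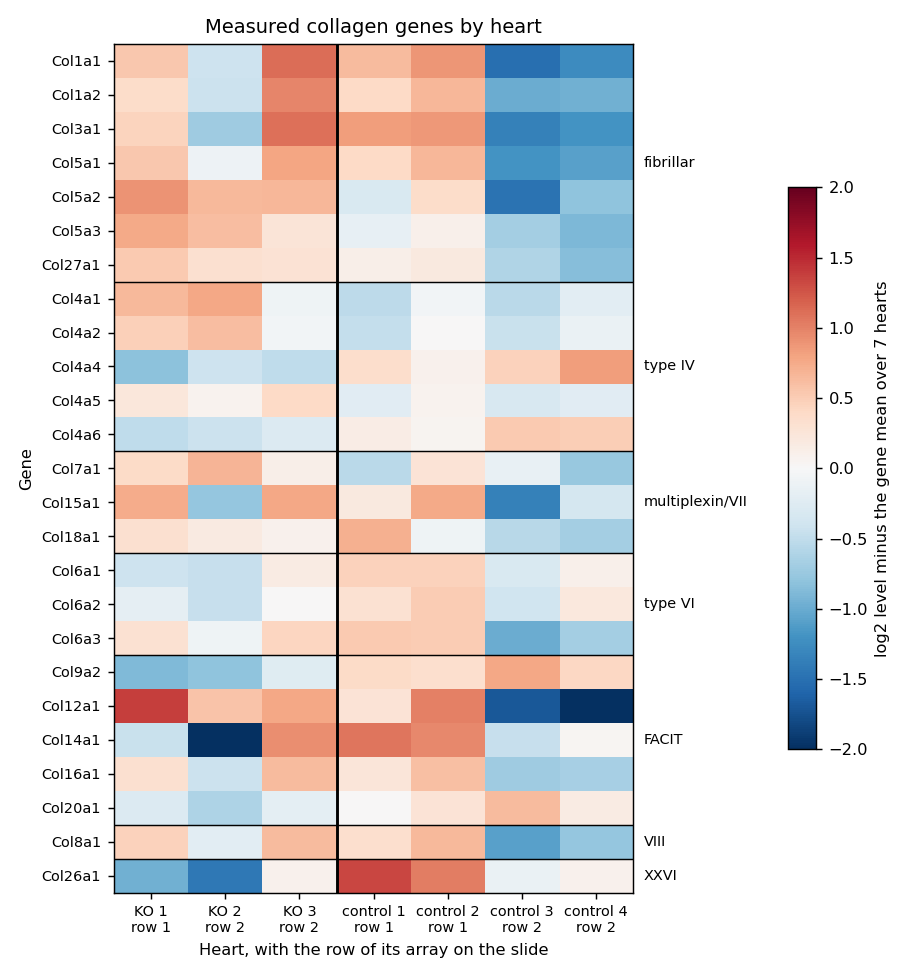
Log2 level of each of the 25 measured collagens in each heart, minus that gene's mean over the 7 hearts, with genes in rows by class, hearts in columns with KO on the left, and colours limited to -2 and 2. In the fibrillar rows controls 1 and 2 are higher than controls 3 and 4. KO 1 and KO 3 lie beside the higher controls in Col1a1, Col1a2, Col3a1 and Col5a1. In Col5a2, Col5a3 and Col27a1 every KO heart lies above every control, while Col4a4, Col4a6 and Col9a2 separate KO from control hearts with KO lower.

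Among the fibrillar collagens the type V chains Col5a2 and Col5a3 rose. Col5a2, which encodes the α2 chain of type V, read 0.67, 0.41 and 0.44 in KO hearts, against -0.53, 0.13, -1.70 and -1.03 in control hearts. Every KO heart lay above every control heart, and the 3 KO hearts lay close together while the controls spread over almost 2 log2 units. Col5a2 was 2.44-fold higher in KO, a difference of 1.29 ± 0.38 (SE, adjusted p = 0.0438). Col5a3, the α3 chain of type V, read 3.29, 3.15 and 2.78 in KO hearts, against 2.36, 2.63, 1.85 and 1.63 in control hearts. Again no control reached a KO heart, and the rise was 1.94-fold, or 0.96 ± 0.26 (SE, adjusted p = 0.0344). Without control 2, the adjusted p was 0.0151 for Col5a3 and 0.0118 for Col5a2. The Col5a2 call was lost without any other single heart (adjusted p = 0.0652 to 0.148) and with median centring (0.0506), and the Col5a3 call was lost without KO 1, KO 2, control 1, control 3 or control 4 (0.0546 to 0.135).

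Col5a1, the α1 chain that most type V molecules contain, was not past the threshold. It read 3.54, 2.90 and 3.79 in KO hearts, against 3.39, 3.66, 1.80 and 1.90 in control hearts, a difference of 0.72 ± 0.50 (SE, adjusted p = 0.303). Controls 1 and 2 lay among the KO hearts and controls 3 and 4 well below them. Col27a1, a fibrillar collagen best known from cartilage, read -1.59, -1.79 and -1.82 in KO hearts, against -2.0, -1.92, -2.72 and -2.96 in control hearts. Here too controls 1 and 2 were the higher pair, but both stayed below the lowest KO heart, and the difference was 0.67 ± 0.27 (SE, adjusted p = 0.0985, or 0.0146 with slide row as a block).

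The chains of the main cardiac fibrils, types I and III, did not pass and varied widely among the controls. Col1a1, the α1 chain of type I, read 5.72, 4.77 and 6.32 in KO hearts, against 5.83, 6.08, 3.69 and 3.94 in control hearts. Controls 1 and 2 were on a level with KO 1 and KO 3, KO 2 was lower, and controls 3 and 4 were the lowest. The difference of 0.72 ± 0.67 (SE, adjusted p = 0.433) was smaller than the SD of the controls, 1.24. Col1a2, the α2 chain of type I, read 7.45, 6.65 and 8.05 in KO hearts, against 7.47, 7.74, 6.09 and 6.12 in control hearts (difference 0.53, adjusted p = 0.449). Col3a1, whose product forms type III fibrils, read 6.31, 5.15 and 6.96 in KO hearts, against 6.70, 6.73, 4.50 and 4.67 in control hearts (difference 0.49, adjusted p = 0.608). All 3 genes put the 7 hearts in the same order, with KO 3 highest and control 3 lowest. The hearts spread widely in these genes, and 3 KO and 4 control hearts do not settle whether the genes differ between the groups.

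**Figure D2:**
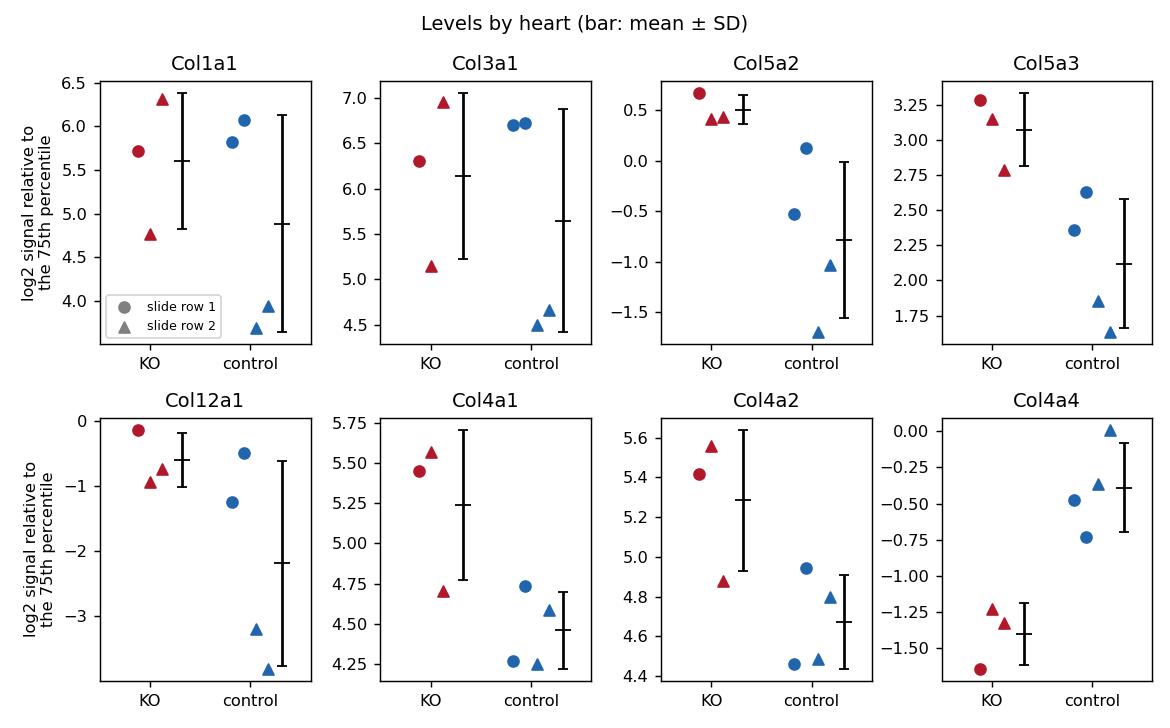
Log2 level of 8 collagens relative to the array's 75th percentile in KO (left) and control hearts (right), a point per heart, with circles for slide row 1 and triangles for row 2 and bars for mean ± SD (n = 3 KO, n = 4 control). The controls of Col1a1, Col3a1 and Col12a1 form a high pair and a low pair, at 5.83 and 6.08 against 3.69 and 3.94 for Col1a1.

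The split of the controls ran through most of the family. Controls 1 and 2 both lay above controls 3 and 4 in 17 of the 25 measured collagens (68%) and below them in 3 (12%), where 25.0% of all features had them above and 33.7% below. All 7 measured fibrillar collagens and all 3 measured type VI collagens had controls 1 and 2 above. Of the 5 type IV genes 0 had them above, and 2, Col4a4 and Col4a6, had them below. The mean level of the 7 fibrillar collagens, each centred on its own mean, was 0.58, -0.01 and 0.74 in KO hearts, against 0.27, 0.53, -1.11 and -1.01 in control hearts. The higher pair of controls shared row 1 of the slide with KO 1 and the lower pair shared row 2 with KO 2 and KO 3, so among the control hearts the pair and the row cannot be told apart.

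Set against the controls of the same row, the fibrillar collagens gave different medians in the 2 rows. The median difference was 0.01 in row 1, where KO 1 stood against controls 1 and 2, and 1.47 in row 2, where KO 2 and KO 3 stood against controls 3 and 4. For Col1a1 the differences were -0.23 in row 1 and 1.73 in row 2, for Col1a2 -0.16 and 1.24, for Col3a1 -0.41 and 1.47, and for Col5a1 0.01 and 1.49. For these genes the difference in row 1 was near or below 0, whereas Col5a2 (0.87 and 1.79), Col5a3 (0.79 and 1.23) and Col27a1 (0.38 and 1.04) were higher in KO in both. Over all 25 measured collagens the median was -0.10 in row 1 and 0.78 in row 2. Row 1 holds 1 KO heart, so its values have no replicate check.

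The row was also fitted as a term, a model chosen after the data were seen. Between row 2 and row 1, 0 of 25 collagens differed at an adjusted p under 0.05 in limma and 14 at an unadjusted p under 0.05, against 0 and 17.4% of all features. A difference of the KO effect between the rows passed in 0 of 25 after adjustment and in 5 unadjusted (Col1a1, Col5a1, Col6a3, Col12a1 and Col27a1), against 0 and 4.08% of all features. With the row as a block 9 collagens passed, the 7 named above with Col12a1 and Col27a1, where 37.6% of all features passed. The median over fibrillar collagens was then 0.90.

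**Figure D3:**
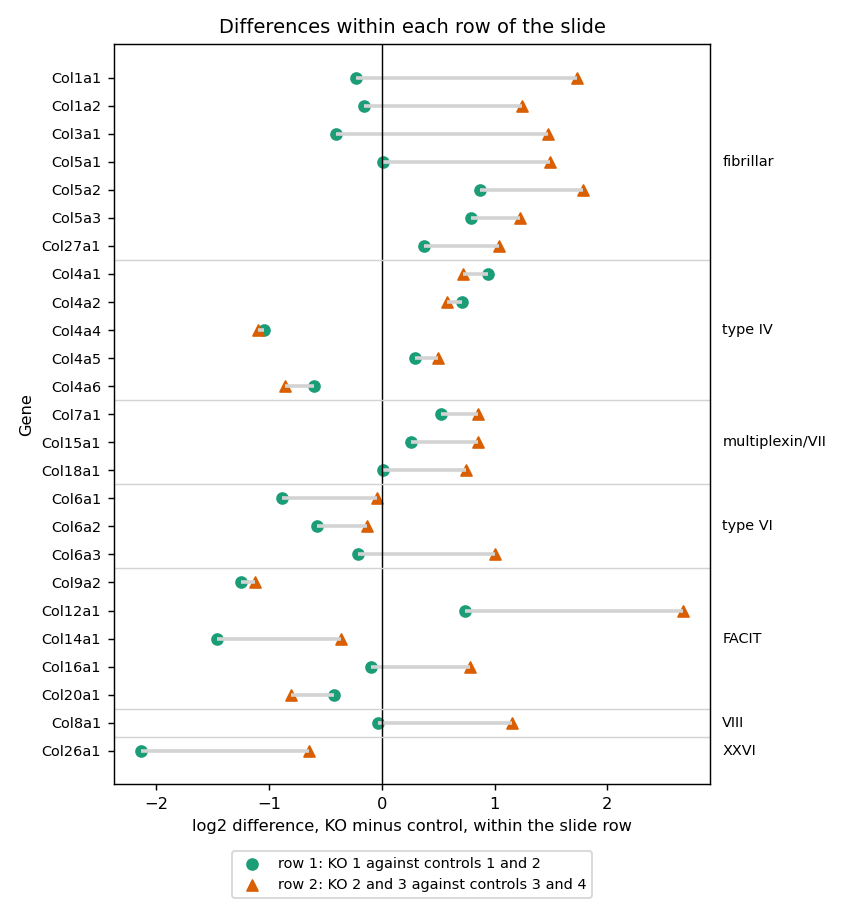
Log2 difference, KO minus control, of the 25 measured collagens within slide row 1 (circles, KO 1 against controls 1 and 2) and row 2 (triangles, KO 2 and 3 against controls 3 and 4), joined by a line for each gene. Col1a1 runs between -0.23 and 1.73, while the type IV genes have both points close together, at -1.04 and -1.1 for Col4a4.

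The type IV genes moved in opposite directions. Of 5 measured genes Col4a1 rose, Col4a4 and Col4a6 fell and Col4a2 and Col4a5 did not pass, with a median difference of 0.40. Col4a1, which with Col4a2 makes the chains of the common type IV network, read 5.45, 5.57 and 4.70 in KO hearts, against 4.27, 4.74, 4.25 and 4.58 in control hearts. KO 1 and KO 2 were higher than every control, and KO 3 lay among the controls, just below control 2. Col4a1 was 1.72-fold higher in KO, a difference of 0.78 ± 0.24 (SE, adjusted p = 0.0472). Col4a2 read 5.42, 5.56 and 4.88 in KO hearts, against 4.46, 4.94, 4.49 and 4.80 in control hearts, a difference of 0.61 ± 0.21 (SE, adjusted p = 0.0636). The pair, which share a start region as printed above, ordered the KO hearts alike, and KO 3 lay within the controls in both. Col4a2 passed without KO 3 (0.81, adjusted p = 0.0240), without control 2 (0.0464) and in the authors' value table (0.0483). Col4a1 did not pass without KO 1, KO 2, control 1, control 3 or control 4 (adjusted p = 0.0866 to 0.171).

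Col4a4 fell in KO hearts. This gene, whose chain joins Col4a3 and Col4a5 in the network of specialised basement membranes such as the kidney's, read -1.64, -1.23 and -1.33 in KO hearts, against -0.47, -0.73, -0.37 and 0.01 in control hearts. No KO heart reached the lowest control, and Col4a4 was 2.01-fold lower in KO, a difference of -1.01 ± 0.20 (SE, adjusted p = 0.0162). The call was lost without KO 1 (-0.89, adjusted p = 0.0814) and held without each of the other hearts. A dimmer Col4a4 probe was well above background on 0 of 3 KO and 4 of 4 control arrays. Its partner Col4a3 was not measured, being well above background on 0 KO arrays and 1 control array.

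Col4a5 and Col4a6, the X-linked pair, had differences of opposite sign, of which that of Col4a6 passed. Col4a6 read -3.05, -2.98 and -2.83 in KO hearts, against -2.40, -2.50, -2.03 and -2.05 in control hearts. The groups did not overlap, and Col4a6 was 1.63-fold lower in KO, a difference of -0.71 ± 0.16 (SE, adjusted p = 0.0220). A second Col4a6 probe did not show this, with a difference of -0.13 (adjusted p = 0.722), and with both probes averaged the difference was -0.42 (adjusted p = 0.107). With normexp background correction it was -0.37 (adjusted p = 0.0774), and without KO 1, KO 2, control 3 or control 4 the adjusted p was 0.0533 to 0.100. Col4a5 read 1.87, 1.71 and 2.06 in KO hearts, against 1.43, 1.73, 1.33 and 1.43 in control hearts, a difference of 0.40 ± 0.15 (SE, adjusted p = 0.0835). KO 2 fell just below control 2, the single overlap between the groups.

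**Figure D4:**
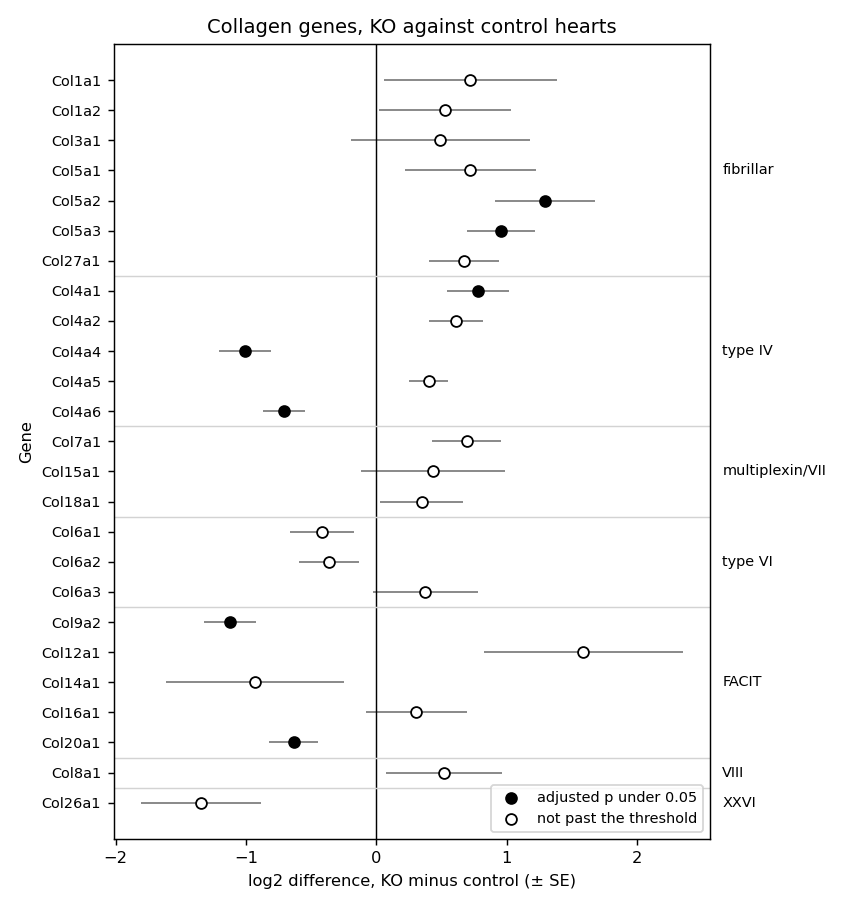
Log2 difference, KO minus control, of the 25 measured collagens by class, with the standard error of the fit as a bar, and filled points where the adjusted p was under 0.05. Filled points to the right are Col4a1, Col5a2 and Col5a3 and to the left Col4a4, Col4a6, Col9a2 and Col20a1, and most fibrillar genes lie to the right with wide bars.

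The other collagens of the basement membrane zone did not pass, with differences of 0.35 to 0.69. Col15a1, a multiplexin of muscle and capillary basement membranes, read -1.48, -3.0 and -1.44 in KO hearts, against -2.02, -1.46, -3.57 and -2.56 in control hearts (difference 0.43, adjusted p = 0.574). KO 2 was lower than all but 1 control. Col18a1, the precursor of endostatin, read 2.08, 1.94 and 1.84 in KO hearts, against 2.46, 1.67, 1.2 and 1.07 in control hearts (difference 0.35, adjusted p = 0.430). Control 1 was the highest of all hearts for this gene. Col7a1, which forms anchoring fibrils in skin, read -1.0, -0.70 and -1.26 in KO hearts, against -1.93, -1.11, -1.54 and -2.14 in control hearts. Only KO 3 fell within the range of the controls, and the difference was 0.69 ± 0.26 (SE, adjusted p = 0.0848, or 0.0254 without control 2).

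None of the 3 measured type VI genes passed. Col6a1, whose chain is joined by those of Col6a2 and Col6a3 in the usual type VI molecule, read 3.72, 3.68 and 4.30 in KO hearts, against 4.59, 4.60, 3.83 and 4.23 in control hearts, a difference of -0.42 ± 0.24 (SE, adjusted p = 0.227). Within the rows the difference was -0.88 and -0.04. Col6a2 differed by -0.36 and Col6a3 by 0.38, so the 3 chains had no common direction. Col6a3 was at 4.22 and 4.20 in controls 1 and 2 and at 2.70 and 3.02 in controls 3 and 4, a wider gap than that of Col6a1.

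The fibril-associated collagens held 2 genes that fell. Col9a2, a chain of type IX collagen, which coats cartilage fibrils, read -4.14, -4.06 and -3.49 in KO hearts, against -2.87, -2.91, -2.48 and -2.83 in control hearts. No KO heart reached the controls, which lay close together, and Col9a2 was 2.18-fold lower in KO, a difference of -1.12 ± 0.20 (SE, adjusted p = 0.0138). The call was lost without KO 1 (adjusted p = 0.0721) or KO 2 (0.0507), and with normexp the difference was -0.41 (0.0353). Col20a1 read -3.36, -3.70 and -3.27 in KO hearts, against -3.07, -2.81, -2.44 and -2.92 in control hearts. These groups did not overlap either, and Col20a1 was 1.55-fold lower in KO, a difference of -0.64 ± 0.19 (SE, adjusted p = 0.0430). The Col20a1 call held only without KO 3 among the hearts left out (adjusted p = 0.0522 to 0.125 without each of the others). It was lost with normexp (-0.30, adjusted p = 0.111), quantile normalization (0.0528), median centring (0.0668), the authors' value table (0.0565) and probe means (0.0612), and a second Col20a1 probe differed by -0.63 (adjusted p = 0.121). Of 4 cartilage markers measured 0 passed (median difference -0.54, range -1.46 to 0.05). Comp, at -1.46 (adjusted p = 0.0699), did not overlap between the groups, and its difference was -0.76 without KO 2. Acan was at -0.84 (0.0765), and 2 of the 4, Acan among them, entered the test only through the control arrays. The log2 summed signal of the 4 was -1.17 to 0.51 in KO hearts and 0.30 to 0.61 in control hearts. The cartilage markers Matn1, Matn3, Hapln1 and Cnmd were not measured.

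Col12a1 and Col14a1 encode the collagens that decorate type I fibrils. Col12a1 read -0.14, -0.94 and -0.74 in KO hearts, against -1.24, -0.50, -3.21 and -3.82 in control hearts. Controls 1 and 2 lay near the KO hearts and controls 3 and 4 more than 2 log2 units below them, 1 control array being not well above background. The difference of 1.59 ± 0.76 (SE) did not pass (adjusted p = 0.151), but it was 0.74 within row 1 and 2.67 within row 2, and it passed with the row as a block (1.90, adjusted p = 0.0160) and without control 2 (2.15, adjusted p = 0.0406). Col14a1 read 0.74, -0.89 and 2.12 in KO hearts, against 2.26, 2.14, 0.73 and 1.22 in control hearts, a difference of -0.93 ± 0.68 (SE, adjusted p = 0.326). Its KO hearts spread more widely than its controls, with KO 2 the lowest of the 7, and the difference was -0.16 without KO 2 and -1.66 without KO 3. Col16a1 differed by 0.31 (adjusted p = 0.569).

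Of the remaining classes 2 genes were measured. Col8a1, a short-chain collagen of vessel walls, read 1.85, 1.18 and 2.03 in KO hearts, against 1.73, 2.03, 0.30 and 0.61 in control hearts, a difference of 0.52 ± 0.45 (SE, adjusted p = 0.40). It split the controls as the fibrillar genes did. Col26a1 read -4.20, -4.68 and -3.15 in KO hearts, against -1.91, -2.22, -3.38 and -3.15 in control hearts, a difference of -1.34 ± 0.46 (SE, adjusted p = 0.0654). It was well above background on 1 of 3 KO and all 4 control arrays, and KO 3 lay beside the lower pair of controls. It passed with normexp (-0.55, adjusted p = 0.0256) and without KO 3 (-1.77, adjusted p = 0.0307).

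The other 19 collagens were not measured. Among them 14 were well above background on no array: the fibrillar genes Col2a1, Col11a1 and Col24a1, Col6a4 and Col6a5 of type VI, the fibril-associated Col9a1, Col9a3, Col19a1 and Col22a1, Col10a1 of cartilage, the transmembrane Col13a1, Col17a1 and Col25a1, and Col28a1. Col4a3 and Col6a6 were above background on 1 control array, Col11a2 on 1 KO array, and Col8a2 and Col23a1 on 1 KO and 2 control arrays. None of the 4 transmembrane collagens was measured.

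Genes whose products make, bind or break collagen gave a mixed picture. Of 21 genes of collagen folding and modification 1 rose, 1 fell and 19 did not pass (median difference 0.32). This is 4.8% higher and 4.8% lower, against 10.2% and 15.0% of all features. Tmem38b, a potassium channel of the endoplasmic reticulum needed for collagen secretion, was 1.81-fold higher in KO (adjusted p = 0.0151), and Colgalt2, which adds galactose to hydroxylysine, was 2.33-fold lower (0.0372). The prolyl isomerase Fkbp10 and the lysyl hydroxylase Plod2, both of which act on procollagen, differed by 0.93 and 0.70 and did not pass (adjusted p = 0.0514 and 0.0775). Of 12 measured genes of procollagen cleavage and crosslinking 2 rose (16.7%) and 0 fell (median 0.71). Loxl4, a lysyl oxidase, was 4.91-fold higher in KO (adjusted p = 0.0123), with 2 of 4 control arrays well above background, and Tgm2, the tissue transglutaminase, 1.79-fold higher (0.0163).

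Lox, the main lysyl oxidase that crosslinks fibrillar collagen, did not pass, though no control reached a KO heart. It read 1.84, 1.71 and 1.41 in KO hearts, against -0.06, 0.86, -2.45 and -4.24 in control hearts, a difference of 3.12 ± 1.09 (SE, adjusted p = 0.0692). Of the control arrays 3 of 4 were well above background, and without control 4 the difference was 2.20. The KO hearts lay within a narrow band and the controls again formed a higher and a lower pair, so that the difference was 1.44 within row 1 and 4.90 within row 2. Lox passed with normexp (2.37, adjusted p = 0.0257), with the row as a block (3.52, adjusted p = 0.0150) and without control 2 (3.90, adjusted p = 0.0224). Adamts14, which cleaves the N-propeptide of procollagen, differed by 0.86 (adjusted p = 0.0769).

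Of 13 measured fibril-binding proteoglycans and glycoproteins 1 rose and 2 fell, with a median of -0.71 on the log2 scale. This is 7.7% higher and 15.4% lower, against 10.2% and 15.0% of all features. Tnxb, a tenascin, was 2.36-fold lower in KO (adjusted p = 0.0288) and Ogn, a small leucine-rich proteoglycan, 2.23-fold lower (0.0462). Thbs1, a matricellular protein that can activate latent TGFβ, was 3.63-fold higher (0.0361). Decorin (Dcn), which binds type I fibrils, read 6.83, 6.63 and 7.35 in KO hearts, against 7.70, 7.28, 7.92 and 7.67 in control hearts, and missed the threshold at a difference of -0.71 (adjusted p = 0.050). The sign of this difference was opposite to those of Col1a1 and Col3a1.

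Of 9 measured collagen receptors 2 rose (22.2%) and 0 fell (median 0.30), where 10.2% of all features were higher and 15.0% lower. Itgb1, the β chain of the collagen-binding integrins, was 1.90-fold higher in KO (adjusted p = 0.0359), and Mrc1, a mannose receptor that also takes up collagen and is a macrophage marker, 2.08-fold higher (0.0483). The receptor kinase Ddr1 and the inhibitory receptor Lair1 differed by 0.84 and 0.78 and did not pass (adjusted p = 0.0522 and 0.0755). Among 12 measured collagen-degrading proteases and their inhibitors 3 rose (25%) and 1 fell (8.3%), with a median of -0.06. The neutrophil collagenase Mmp8 and the gelatinase Mmp9 were well above background on all 3 KO and 0 of 4 control arrays. They were at least 2.59-fold and at least 2.40-fold higher in KO. Their adjusted p, 0.0193 and 0.00958, came from limma on the signals as read, and the bounds were not tested. Both entered the test only through the KO arrays, and apart from them 1 gene of this list rose and 1 fell. For such a bound each control array was given the dimmest signal that was well above background on it, or the probe's signal where that was higher, and the KO mean was set against the mean of these. Mmp14, a membrane-bound collagenase, was 2.14-fold higher (0.0372) and Mmp15 of the same family 2.34-fold lower (0.0163). The inhibitor gene Timp1 read 7.89, 7.25 and 7.62 in KO hearts, against 5.70, 6.73, 3.50 and 2.49 in control hearts. No control reached a KO heart, but the difference of 2.98 ± 0.93 (SE) just missed the threshold (adjusted p = 0.050). It was 1.68 within row 1 and 4.44 within row 2.

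Of 20 measured profibrotic signals and regulators 7 rose, 0 fell and 13 did not pass (median 0.38), which is 35% higher and 0% lower against 10.2% and 15.0% of all features. The list was chosen with earlier results of these data known, so this share is a description and not a test. Tgfb2, a TGFβ ligand, read 4.62, 4.95 and 4.4 in KO hearts, against 2.19, 3.23, 1.97 and 1.80 in control hearts, and was 5.13-fold higher in KO (adjusted p = 0.0123). The receptor gene Tgfbr1 was 1.98-fold higher (0.0174). Scx, a transcription factor that drives Col1a2 in cardiac fibroblasts, read 3.54, 3.73 and 3.59 in KO hearts, against 2.36, 2.63, 2.88 and 2.76 in control hearts, and was 1.95-fold higher in KO (0.0125). In Scx controls 1 and 2 were the lower pair, the reverse of Col1a2. Ccn2, a matricellular target of TGFβ, the cytokine gene Il11 and Smad7, which encodes an inhibitor of TGFβ signalling, also rose.

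Over the 6 lists 87 collagen-related genes were measured, of which 16 rose (18.4%) and 4 fell (4.6%), where 10.2% of all features were higher and 15.0% lower. Of those that rose Loxl4, Mmp8 and Mmp9 entered the test only through the KO arrays. All 6 lists were chosen with earlier results of these data known, so the shares are a description and not a test. The Mrc1 call was lost with median centring (adjusted p = 0.0518), and the Ogn call with quantile normalization (0.0507), median centring (0.0610) and the authors' value table (0.0552). With normexp the Loxl4 difference was 1.19 (adjusted p = 0.00426), in place of 2.30. The counts moved with single hearts left out, as did those of all features. Without KO 1 they were 1 and 0, without KO 2 they were 5 and 0, and without control 2 they were 29 and 5. For all features these counts were 20 and 49, 295 and 843, and 2842 and 4128, in place of 2284 and 3356. Without KO 3, control 1, control 3 or control 4 the rises numbered 15, 11, 10 and 12 and the falls 13, 1, 1 and 1, in that order. Those of all features were then 2482, 1276, 961 and 770 higher and 3269, 1990, 1738 and 1447 lower.

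**Figure D5:**
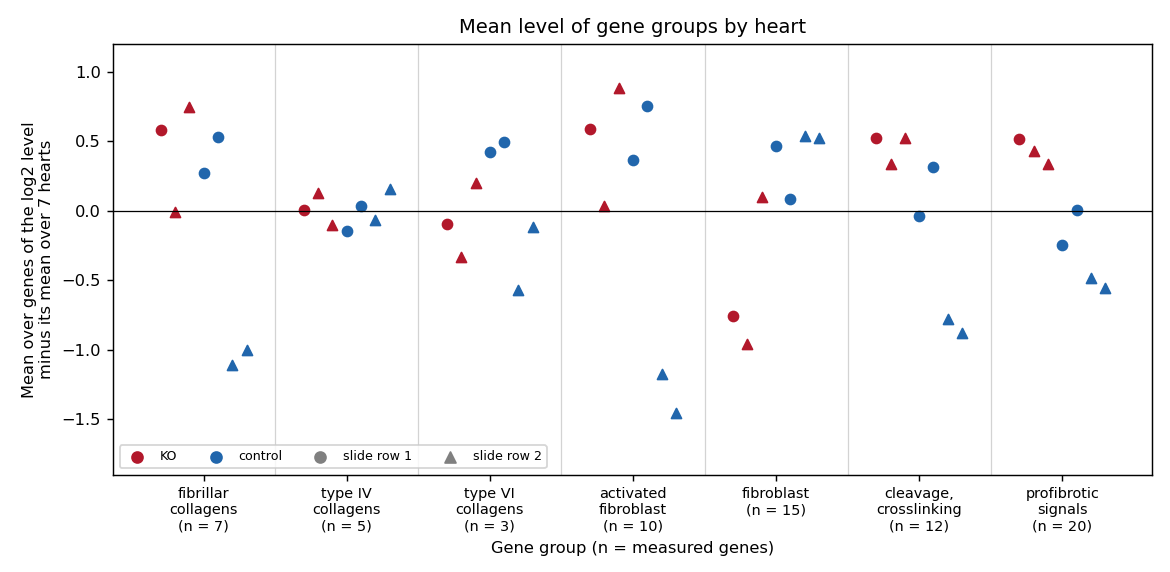
Mean over the measured genes of a list of the log2 level minus each gene's mean over 7 hearts, a point per heart, KO in red left of control in blue, with circles for slide row 1 and triangles for row 2. Fibrillar collagens and activated fibroblast markers both place controls 1 and 2 above controls 3 and 4. Controls 3 and 4 are at -1.11 and -1.01 for the fibrillar collagens and at -1.18 and -1.45 for the markers. The markers include Tnc and Cthrc1, which entered the test only through the KO arrays and are lowest in controls 3 and 4.

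Markers of the cells that could supply collagen are given here beside the collagens, and their part in the collagen differences was not tested. Among all features 25.2% passed, 10.2% higher and 15.0% lower in KO. In whole tissue, fewer cells of a type and less RNA per cell cannot be told apart. Of 10 activated fibroblast and myofibroblast markers 0 passed (median difference 0.73, range -0.66 to 2.97), with Thbs4 at 1.1 (adjusted p = 0.0772) and Tnc at 2.97 (0.101). Tnc and Cthrc1 entered the test only through the KO arrays, each well above background on 2 of 4 control arrays. The Tnc difference was 2.25 to 3.92 with 1 heart left out. Controls 3 and 4 read -4.65 and -4.54 for Tnc and -3.92 and -5.79 for Cthrc1, the lowest values of both genes. The mean centred level of the 10 markers, these 2 included, was 0.59, 0.04 and 0.88 in KO hearts, against 0.37, 0.76, -1.18 and -1.45 in control hearts. This was the same split of the controls as in the fibrillar collagens. The log2 of their summed signal ranged over 7.20 to 7.46 in KO hearts and 5.74 to 7.38 in control hearts. Of 15 general fibroblast markers 8 fell and 1 rose (median -1.08), and 1 of the 8 that fell entered the test only through the control arrays. Pdgfra, a receptor of fibroblasts, was 1.6-fold higher in KO (adjusted p = 0.0163) and Vit 2.84-fold lower (0.0302), a call lost with normexp (-0.71, 0.0567). The log2 summed signal of the list was 7.88 to 8.46 in KO hearts and 8.42 to 9.04 in control hearts, and unlike the fibrillar collagens it did not place controls 1 and 2 above controls 3 and 4.

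Markers of other cells differed in how far they moved with the group. Of 8 measured neutrophil markers 7 rose, 5 of which entered the test only through the KO arrays, 3 of them well above background on no control array. The log2 summed signal was 6.68 to 7.48 in KO hearts and 6.84 to 7.46 in control hearts. Csf3r, the marker that did not pass, had the highest signal of the list in every heart, at 6.67, 7.19 and 6.60 in KO hearts, against 6.89, 6.80, 7.45 and 7.04 in control hearts. Fpr2, well above background on 2 of 4 control arrays, differed by 3.04 (adjusted p = 0.00522), or by 1.37 with normexp (0.00403). Retnlg was not measured and Ly6g was not matched on the array. Of 12 macrophage markers 5 rose and 0 fell (median 0.92, log2 summed signal 6.92 to 7.37 in KO hearts and 6.80 to 6.94 in control hearts), with Cd14 and Lyve1 at 1.43 and 0.78 (adjusted p = 0.0126 and 0.0154). Of 11 cardiomyocyte markers 6 fell and 0 rose (median -0.77, log2 summed signal 12.27 to 12.51 in KO hearts and 12.63 to 13.16 in control hearts), led by Tcap at -1.70 (adjusted p = 0.0103) and Tnni3 at -1.19 (0.0126).

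Among 14 endothelial markers 1 rose and 1 fell (median -0.24, log2 summed signal 7.41 to 7.73 in KO hearts and 7.57 to 8.07 in control hearts). Kdr, the main VEGF receptor, differed by -1.19 (adjusted p = 0.0123) and Plvap, a protein of fenestrated endothelium, by 0.50 (0.0430, or 0.0665 with median centring and 0.0788 with probe means). Among 12 smooth muscle and pericyte markers 1 rose and 2 fell (median 0.05, log2 summed signal 8.08 to 8.14 in KO hearts and 7.53 to 8.03 in control hearts), with Abcc9 and Rgs5 2.0-fold and 1.78-fold lower in KO (adjusted p = 0.0203 and 0.0289). Of 5 measured endocardial and epicardial markers 2 rose, Krt19 and Msln, 4.26-fold and 5.57-fold higher (adjusted p = 0.0233 and 0.0434), and the log2 summed signal of the list was 1.47 to 2.5 in KO hearts and 0.90 to 1.76 in control hearts. The Msln call held in 2 of 7 fits with 1 heart left out, with a difference of 1.79 without control 2 in place of 2.48. The Krt19 call held in 3 of 7, and with normexp its difference was 0.96 in place of 2.09. The epicardial markers Lrrn4, Upk1b and Upk3b were not measured.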

How the data were processed

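RNA from 7 heart apices was labelled from 100 ng of total RNA each and hybridised to 1-colour Agilent arrays, per the labels' protocols. The deposited scanner files hold spot intensity, background-subtracted by Agilent Feature Extraction 11.0.1.1, per the file headers. The authors' deposited value table holds log2 values. Each of its rows has a median of 0, its column medians are 0 apart from KO 2 (-0.00212) and control 4 (0.0079), its columns follow the scanner values with slopes of 0.988 to 1.01, and its scale is unknown. Groups came from the titles, and the row of each array was read from the position code that its deposited file carries, which no label explains.

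The log2 of each processed signal was taken relative to the 75th percentile of its array, control spots left out. Outlier spots were dropped, saturated spots kept, and spots of a probe averaged. The filter asked for a signal well above background on 3 or more arrays of KO or of control hearts, which 26576 of 55681 probes passed. The brightest kept probe stood for each gene, named through its RefSeq accession (28026 probes matched, 27655 did not and none matched several). The groups were compared with limma 3.58.1 under R 4.3.3 (lmFit and eBayes, KO minus control) with Benjamini-Hochberg adjustment over 22344 features and a threshold of 0.05. Every measured collagen was named, as were Mapk14 and Esr1. Up to 4 members of lowest p were named per related list and up to 2 per marker list. Heart values of Col27a1 and of related genes were added after their values were seen. So were the heart values of Timp1, which did not pass, and the names of other related genes that passed. The members and lists were chosen with earlier results of these data known. A planned correlation over hearts is not given, because the controls fall into 2 pairs. Alternatives were quantile normalization, median centring, normexp background correction (offset 50), other probe filters, the authors' value table, means over probes, blocks for replicate number and slide row, an unmoderated test, array weights and each heart left out. The within-row term and single-probe fits were chosen after the data were seen. A gene that the naming rule selects is not reported here.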

Additional observations from a re-analysis of the deposited data

Results flagged for a closer look

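No collagen had a control heart that stood apart from the other 3 by Dixon's test (groups of 3 KO hearts were not tested). Among the 66 genes of the report whose controls were tested 3 did, and chance flags about 1 in 20. The gelatinase gene Mmp9 read -5.06 in control 2, above the other controls, though well above background on none. Thbs1 read -0.532 in control 4, below the other controls. Tcap, the titin cap of cardiomyocytes, read 8.82 in control 2, below the other controls.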

How the results depend on the processing

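No collagen changed direction under any alternative fit over all 7 hearts or with 1 left out. The main counts were 3 collagens higher and 4 lower, 16 and 4 of the related genes, and 2284 and 3356 of all features. With no filter on dim probes 0 collagens were higher (7 at an unadjusted p under 0.05 in limma), the 3 lower ones were Col22a1, Col4a3 and Col9a2, 6 and 0 related genes passed, and 440 and 975 features. With the unmoderated test 0 and 0 collagens passed (5 and 4 unadjusted), 0 and 0 related genes, and 25 and 65 features. With array weights, which gave KO 1 a weight of 6.53, 8 and 6 collagens passed, 35 and 13 related genes, and 5360 and 6639 features. With slide row as a block 5 collagens were higher, 31 related genes and 3585 features. With probe means 2 collagens were lower, and with normexp 8 related genes were. Within row 1 the collagen median was -0.10. With each heart left out, collagens higher numbered 0 to 8 and lower 0 to 5, related genes 1 to 29 and 0 to 13, and all features 20 to 2842 and 49 to 4128.

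Replicate numbers did not pair the hearts: same-numbered KO and control hearts correlated at 0.184, -0.223 and -0.197 in their deviations, and 0 of 3 KO hearts correlated best with the control of its number. The replicate block, which drops control 4, left 0 and 0 collagens (5 and 4 unadjusted), 0 and 0 related genes, and 6 and 3 features. Signal over background limits the 19 collagens not measured, and Col4a6, Col20a1, Col9a2 and Col26a1, which were dim.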
